A study of Argopecten irradians irradians with 6 samples.

Results

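The predicted microRNAs (miRNAs) of the bay scallop Argopecten irradians irradians that had the most counts in adductor muscle are described here. They are the rows of the deposited count table that are named by a contig (an assembled stretch of genome) and a number, chosen by their counts summed over the 6 libraries, which came to 300 or more. There were 34 of them, among 528 predicted rows and 5446 rows in all. Their abundance is therefore a description. The limit did not use the groups, but some rows reached it mainly through the group where they were high. Among others, Contig179_7833, Contig110_4205 and both rows of Contig1031 did so through orange, and Contig234_9621 through white muscle. Counts of calls and of rows without overlap among the 34 are thus not free of that choice. The remaining 494 predicted rows had fewer counts, and 174 of those were at 0 in every library.

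An miRNA is cut from a hairpin precursor RNA, usually first by Drosha and then by Dicer, and guides an Argonaute protein to messenger RNAs that pair with its seed, the bases near its 5′ end. Animals carry miRNAs shared across phyla, such as the muscle miRNAs miR-1 and miR-133, and others known from narrow lineages. A predicted miRNA is a stretch of genome that forms such a hairpin and collects small-RNA reads in a pattern that cutting would leave. Precursors that lie close together on a chromosome are often transcribed as 1 unit and can then share their level. No target, function or family is known here for any of the 34, and their sequences and positions were not used here.

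Small RNAs were sequenced from the adductor, the muscle that closes the shell, of 2 strains. White adductor muscle came from Bohai Red scallops and orange adductor muscle from QN Orange scallops, with 3 libraries each and 3 muscles pooled in a library, 9 muscles per strain. The study concerns carotenoid, the orange pigment, in the QN Orange muscle, and no treatment is named and the age of the animals is not given in the sources used here. Muscle colour and strain cannot be told apart, and the replicate error is that between pools. The columns are lettered B and G, and B was read as white and G as orange. Another deposited table has further columns whose names could also stand for Bohai Red, so the reading is in doubt, and the direction of every difference rests on it.

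The same reads were counted under the names of many species, so the known families entered with 1 row each, the most abundant, beside all predicted rows. On this table of 716 features the libraries held 2092825 counts (orange replicate 2) to 4001516 counts (white replicate 1). Levels are given as CPM, counts per 1000000 after TMM scaling between libraries. The muscle miRNAs miR-1 and miR-133 summed to 293718 to 520883 CPM. Libraries numbered 1 stood apart in some miRNAs of other tissues, but not in all. The 4 epithelial and sensory miRNAs (miR-263, miR-96, miR-8 and miR-183) summed to 7514 CPM in white replicate 1, against 1583 CPM in white replicate 2 and 1458 CPM in white replicate 3. In orange replicate 1 that sum was 4810 CPM, against 2534 and 2808 CPM in orange replicates 2 and 3. Of its parts, miR-96 was at 1562 CPM in orange replicate 1 and at 1485 CPM in orange replicate 3. The 3 neural miRNAs miR-124, miR-9 and miR-219 summed to 666 CPM in orange replicate 1 and to 19.8 to 55.0 CPM elsewhere. Of the 666 CPM, 604 CPM were miR-124, which did not stand out in white replicate 1 (19.0 CPM). The neural miR-219 was at 0 in 3 libraries, orange replicate 1 among them, and highest in white replicate 1 (3.76 CPM). The 3 gut and digestive gland miRNAs miR-194, miR-375 and miR-216 summed to 1196 to 2975 CPM, most of it miR-216. That sum was lowest in orange replicate 1 and highest in white replicate 2.

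The predicted miRNAs spanned a 14531-fold range of summed counts, and their abundance was dominated by a single row. Contig117_4460, with 5013176 counts, was the most abundant of all 716 features in summed counts and held 89.7% of the counts of the 34. The next, Contig632_21629, had 153846 counts, 32.6-fold fewer. Besides these, Contig210_8054 also had over 100000 counts. Another 7 had 10000 to 99999 counts, 12 had 1000 to 9999 and 12 had 300 to 999, with a median of 1722.5. Among the 25 most abundant features of the table, 7 were predicted miRNAs, and among the 50 most abundant, 12. Library by library, the row of miR-133 had more counts than Contig117_4460 in every white library and in orange replicate 2. In white replicate 1 these were 987656 counts for miR-133 and 918309 for Contig117_4460. The 34 rows held 99.8% of all counts of predicted rows. A count above 0 was found in all 6 libraries for 31 of them.

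**Figure D1:**
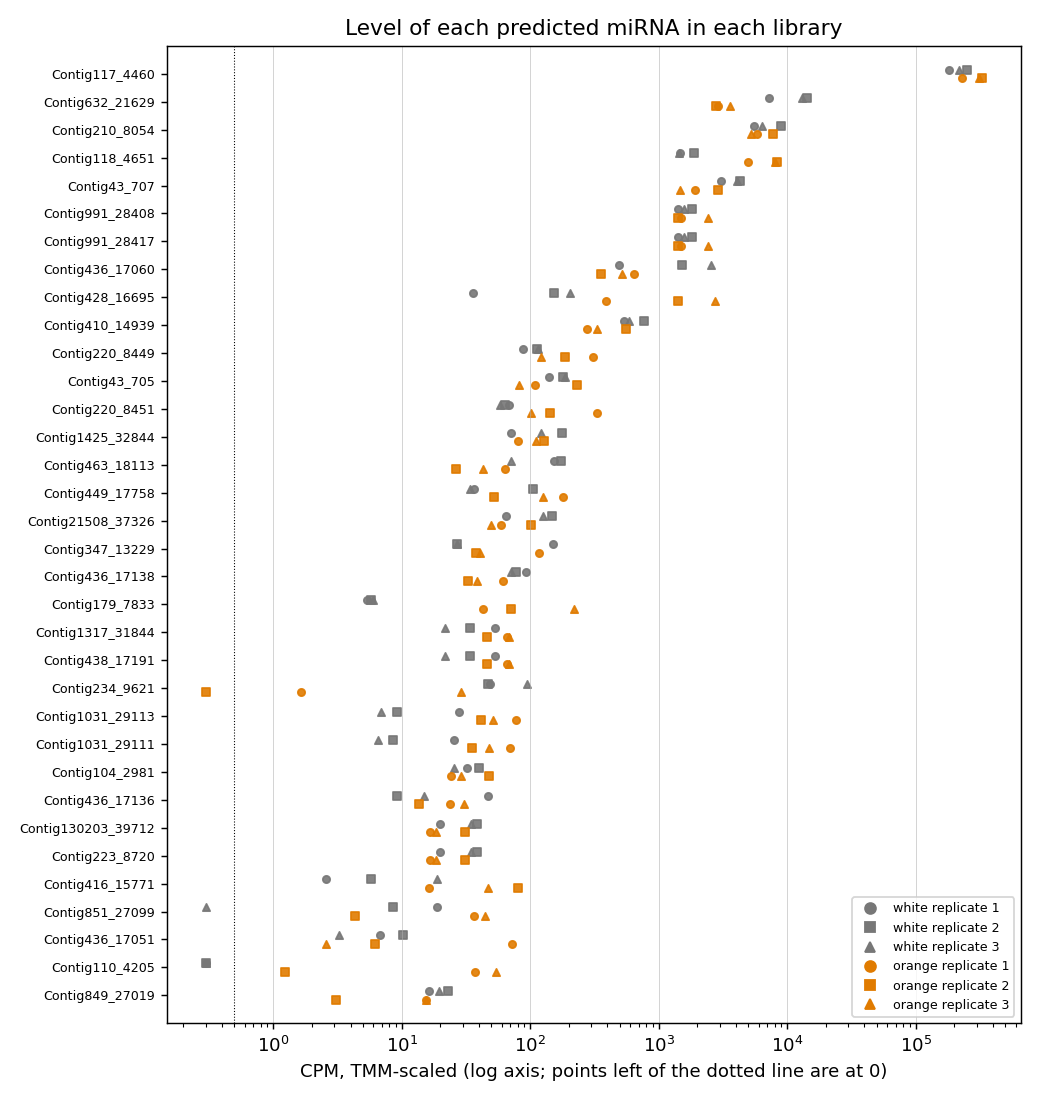
Level of each of the 34 predicted miRNAs in each library, ordered by summed counts, in TMM-scaled CPM on a log axis (grey: white muscle, orange: orange muscle, marker shape: replicate number). Contig117_4460 lies far to the right of all others, and the libraries of the 2 groups are widely separated for Contig118_4651, Contig179_7833 and Contig632_21629.

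The limit of 300 counts fell in a sparse stretch of the list. Just above it lay Contig436_17051 with 403 counts, Contig110_4205 with 347 and Contig849_27019 with 345. Just below it lay Contig723_24055 and Contig831_26889 with 289 each, which had the same count in every library, and Contig83_2594 with 285.

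Not all of the 34 rows are separate measurements. Identical counts in all 6 libraries were found for Contig991_28408 and Contig991_28417, for Contig1317_31844 and Contig438_17191, and for Contig223_8720 and Contig130203_39712. The 34 rows therefore held 31 distinct profiles of counts. The first pair lies on 1 contig, and the other 2 pairs each join different contigs. None of the 34 had the counts of a row with a known family name.

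Contig117_4460 held nearly the same share of counts in every white library, 22.8% to 22.9%, and a larger share in every orange library. Its share was 22.9% ± 0.0697 in white and 26.9% ± 2.26 in orange muscle (SD, n = 3 each, exact two-sided permutation p = 0.1, the smallest that 3 against 3 libraries allow). The 95% Wilson interval of each library's share reached at most 0.0588 percentage points to either side, which covers counting error only. On the scaled levels the picture was less even. Its CPM was 181820, 249078 and 215700 in the white libraries, replicates 1 to 3, and 230847, 326920 and 313416 in the orange ones. Per-library values follow this order throughout. These ranges overlapped, because orange replicate 1 lay below white replicate 2. The log2 difference, orange minus white throughout, was 0.43 (SE 0.207, adjusted p = 0.233, edgeR), and with upper-quartile scaling it turned to -0.37. With the replicate number as a block it passed (log2 difference 0.43, adjusted p = 0.0252).

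The 2nd to 10th most abundant predicted miRNAs together held 3.08% ± 0.362 of the counts in white and 2.28% ± 0.218 in orange muscle, without overlap (exact two-sided permutation p = 0.1). Contig632_21629 carried that difference, and without it the other 8 held 1.89% ± 0.109 and 1.99% ± 0.165, with overlapping libraries (exact permutation p = 0.6). The 11th to 34th held 0.134% ± 0.0203 and 0.153% ± 0.0543, with overlapping libraries (exact permutation p = 0.7). All 34 together held 26.1% ± 0.281 in white and 29.3% ± 2.47 in orange muscle (exact permutation p = 0.1), a difference of 3.22 percentage points. With Contig117_4460 taken out of the sum and the total, the difference was -0.833 percentage points, and the libraries overlapped (exact permutation p = 0.2). The share of the 34 rows together was thus set by that single row.

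**Figure D2:**
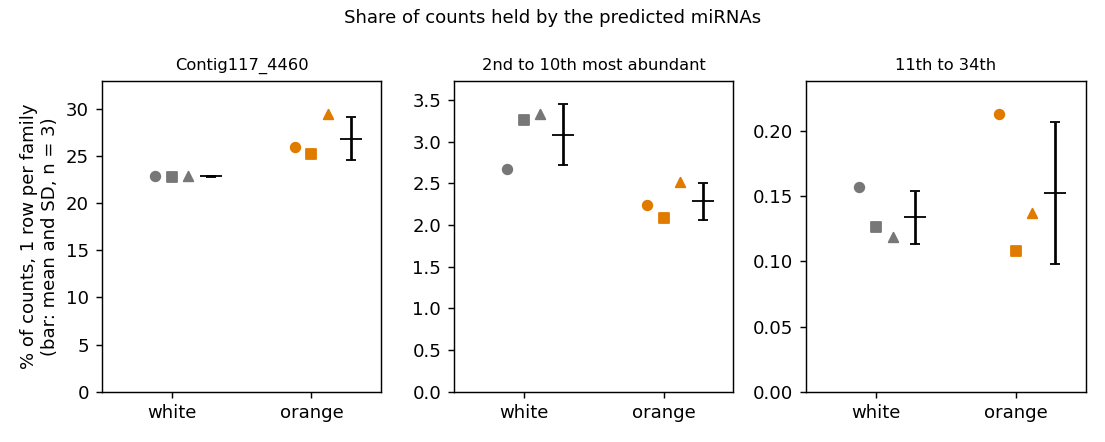
Share of the counts of the table with 1 row per family held by Contig117_4460, by the 2nd to 10th and by the 11th to 34th most abundant predicted miRNAs, in percent (points: libraries, marker shape: replicate number, bars: mean and SD, n = 3). The share of Contig117_4460 was higher in all orange libraries, that of the next 9 together, which rests on Contig632_21629, was lower, and that of the rest overlapped.

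Between orange and white muscle, 3 of the predicted miRNAs were called at an adjusted p under 0.05 (edgeR). Contig118_4651 and Contig179_7833 were called higher in orange muscle and Contig632_21629 lower. Of the 34, 33 passed the filter on low counts, and the 3 calls were 9.09% of them. Over all 142 features tested, 13 were called, or 9.15%, so the predicted miRNAs were called about as often as the rest. By direction, 4.93% of all features were called higher and 4.23% lower. Known families had 6 calls of 62, and the predicted miRNAs with fewer counts 4 of 47. With library totals in place of TMM the split was 2 higher and 2 lower, with Contig43_707 added, and 14.1% of all features were called.

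Contig118_4651, the fourth most abundant predicted miRNA, was at 1472, 1876 and 1433 CPM in white and at 4982, 8369 and 8047 CPM in orange muscle. Every orange library lay above every white library by a wide margin. The means were 1594 ± 246 and 7133 ± 1870 CPM (SD, n = 3), and the fitted rise was 4.48-fold (log2 difference 2.16, SE 0.310, adjusted p = 0.0146 by edgeR). Upper-quartile scaling ended the call (log2 difference 1.40, adjusted p = 0.192).

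Contig179_7833 had the largest log2 difference of the 33. Its counts were 27, 18 and 20 in white and 182, 115 and 765 in orange muscle. The white libraries were close together at 5.35, 5.76 and 5.96 CPM, while the orange libraries spread over 43.0, 71.2 and 220 CPM. The fitted rise was 19.5-fold (log2 difference 4.29, SE 0.786, adjusted p = 0.0163 by edgeR). Orange replicate 3 carried much of that size, and without it the log2 difference was 3.25, with the call kept.

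Contig632_21629 was the second most abundant predicted miRNA and the only one of the 33 called lower. It was at 7184, 14362 and 12942 CPM in white and at 2874, 2808 and 3607 CPM in orange muscle. The lowest white library was still well above the highest orange one. The means were 11496 ± 3801 and 3096 ± 443 CPM (SD, n = 3), and the fitted fall was 3.71-fold (log2 difference -1.89, SE 0.325, adjusted p = 0.0146 by edgeR).

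The number of calls depended on the white libraries. Without white replicate 2, 0 of 157 features passed by edgeR, with 29 at an unadjusted p under 0.05, and without white replicate 3, 0 of 166 passed, with 34. In these fits the 3 miRNAs had adjusted p-values of 0.0582 to 0.0843 at log2 differences of the same sign. Without white replicate 1, 6 of the predicted miRNAs passed (17.6%, beside 13.0% of all features), and without both libraries numbered 1, 7 did (21.2%, beside 13.7%). DESeq2 on the same table called 10 of the 33, or 4 higher and 6 lower, where it called 23.2% of all features.

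**Figure D3:**
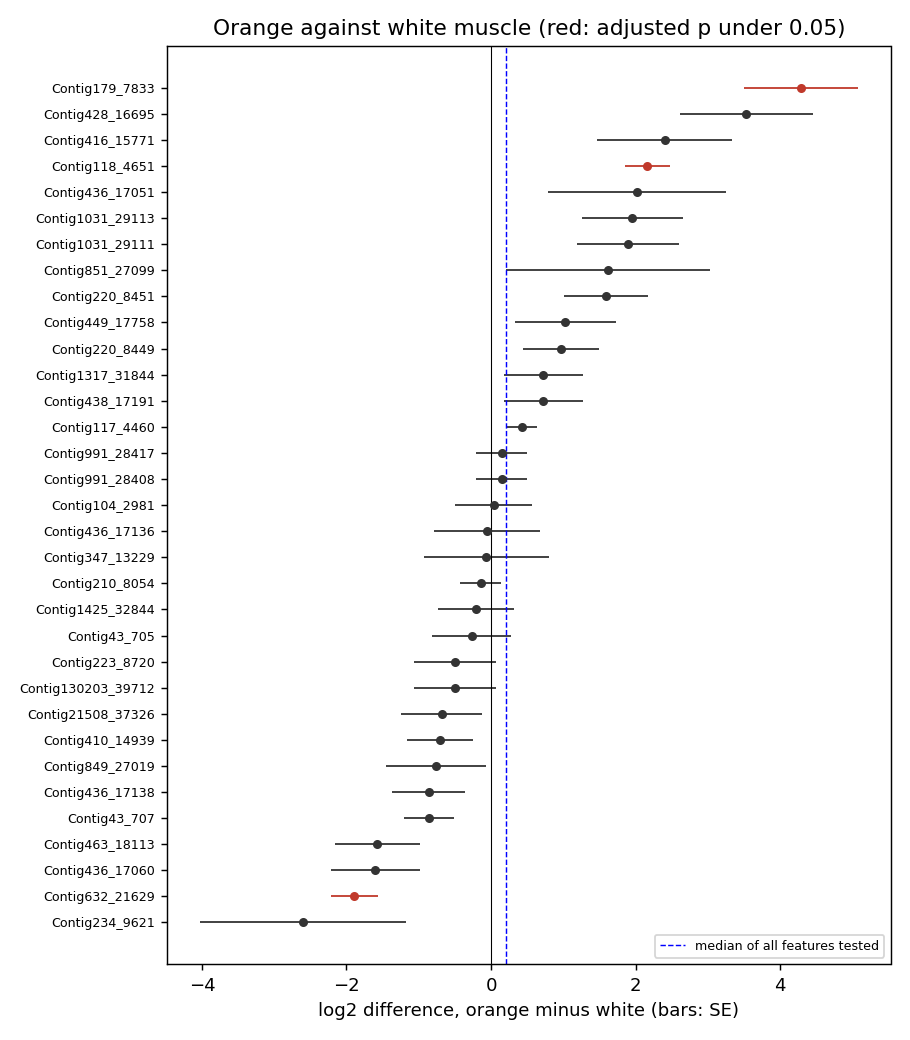
Log2 difference, orange minus white, of the 33 predicted miRNAs tested, with SE, from edgeR with 3 libraries per group (red: adjusted p under 0.05; dashed line: median of all 142 features, 0.20). The values run from -2.60 to 4.29 and lie on both sides of 0.

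Most of the predicted miRNAs did not pass the test, and their differences pointed both ways. Of the 33, 17 had a log2 difference above 0 and 16 below, against 59.2% above 0 over all 142 features. Their median was 0.04, and that of all features was 0.20. The median moves with the scaling, to -0.25 for the predicted miRNAs and -0.07 for all features with DESeq2 size factors. The libraries of the 2 groups did not overlap for 13 of the 33, or 39.4%, where 35.2% of all features did not overlap. Of the 13, 7 were higher and 6 lower in orange muscle, beside 20.4% and 14.8% of all features. Before adjustment, 7 higher and 4 lower had p under 0.05 (edgeR), or 11 of 33, beside 26.8% of all features.

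Among those higher in every orange library, Contig428_16695 missed the threshold by little. It had 182, 483 and 687 counts in white and 1651, 2303 and 9571 in orange muscle. The levels varied widely within each group, 36.0 to 205 CPM in white and 390 to 2757 CPM in orange muscle, but did not meet. The log2 difference was 3.53 (SE 0.923, adjusted p = 0.0581, edgeR), and it passed in 6 of the 16 alternative fits, among them the DESeq2 test. Without orange replicate 3 it was 2.65 (adjusted p = 0.174). On the same contig, Contig428_16698, a row with 284 counts and so just outside the 34, had 5, 23 and 22 counts in white and 48, 45 and 141 in orange muscle. Both rows were lowest in white replicate 1 and highest in orange replicate 3. The log2 difference of Contig428_16698 was 2.43 (SE 0.884, adjusted p = 0.158). A further row of that contig, Contig428_16798, had 8, 18 and 28 counts in white and 43, 13 and 43 in orange muscle, with overlapping libraries (log2 difference 0.98, SE 0.717).

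Contig110_4205 did not pass the filter, because too few libraries held enough counts. It also reached 300 counts through the orange libraries alone, and no test of it is given. It had 0 counts in all 3 white libraries, and 157, 2 and 188 in orange muscle. Against a floor of 3 counts over the white group, or 0.260 CPM, its orange mean of 30.8 CPM was at least 119-fold higher. That mean rests on orange replicates 1 and 3, since orange replicate 2 held only 2 counts.

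Among those lower in every orange library, Contig43_707 was the most abundant after Contig632_21629. It was at 3035, 4267 and 4084 CPM in white and at 1934, 2883 and 1454 CPM in orange muscle. Orange replicate 2 lay just under white replicate 1, so the gap was small. The log2 difference was -0.86 (SE 0.348, adjusted p = 0.160), and it passed in 4 of 16 alternatives. Contig463_18113 was at 133 ± 54.4 CPM in white and 44.6 ± 18.6 CPM in orange muscle (log2 difference -1.57, SE 0.593, adjusted p = 0.160). Contig849_27019 had 82, 72 and 66 counts in white and 66, 5 and 54 in orange muscle (log2 difference -0.76, SE 0.696).

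Contig234_9621 was uneven within orange muscle. It had 244, 146 and 315 counts in white and 7, 0 and 100 in orange muscle. Orange replicate 3 held most of the orange counts and was still below every white library in CPM. Its log2 difference of -2.60 (SE 1.42, adjusted p = 0.270) became -5.96 without orange replicate 3, where it passed (adjusted p = 0.0494, edgeR).

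Some abundant predicted miRNAs did not pass the test and overlapped between the groups. Contig210_8054, next in abundance after Contig632_21629, was at 6965 ± 1770 CPM in white and 6299 ± 1361 CPM in orange muscle (log2 difference -0.15, SE 0.290). Contig991_28408 and its identical partner Contig991_28417 were at 1610 ± 210 and 1782 ± 564 CPM (log2 difference 0.15, SE 0.353), a difference whose sign turned in 8 of 16 alternatives. Contig410_14939 was at 634 ± 123 and 387 ± 146 CPM (log2 difference -0.71, SE 0.457, adjusted p = 0.332 by edgeR). It stayed below 0 in all 16 alternatives and was called by DESeq2 (-1.02, adjusted p = 0.0215).

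Within the groups, a few predicted miRNAs varied widely between libraries. Contig436_17051 had 34, 32 and 11 counts in white and 307, 10 and 9 in orange muscle, so orange replicate 1 was 11.7-fold above the median of the other 5 libraries in CPM. Its log2 difference was 2.01 (SE 1.23) and turned to -0.66 without orange replicate 1. The neural miR-124 was also high in that library alone, at 604 CPM against 11.8 to 20.6 CPM elsewhere. Of the other neural miRNAs, miR-9 was highest there too (61.7 CPM) and miR-219 was at 0. The nearest of 62 known families was miR-981 (SD of the log2 ratio 0.78), followed by miR-124 (0.87). Counts of miR-981 were 3472, 668 and 585 in white and 13251, 328 and 317 in orange muscle. Whether any of these is connected with Contig436_17051 was not tested. Contig851_27099 had 96, 27 and 0 counts in white and 154, 7 and 154 in orange muscle (log2 difference 1.62, SE 1.41).

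Contig347_13229 followed the libraries numbered 1 in both groups, and it is named because of that pattern, after its values were seen. Its level was 151, 26.9 and 27.1 CPM in white and 118, 37.8 and 40.9 CPM in orange muscle. It was 5.59 times the higher of the other libraries in white replicate 1, and 2.88 times in orange replicate 1. Both rows of Contig1031 were also highest in the libraries numbered 1, at 2.99 and 2.98 times in white muscle, and at 1.5 and 1.47 times in orange muscle. Between the groups the log2 difference of Contig347_13229 was -0.06 (SE 0.867), and it turned to 1.28 without white replicate 1. The epithelial and sensory miRNA miR-263 had a like course, 4316, 778 and 771 CPM in white and 2470, 1200 and 1079 CPM in orange muscle. It is shown because it lay nearest to Contig347_13229 of 62 known families, after the values were seen. On its list, miR-8, miR-183 and miR-96 were also highest in white replicate 1. In orange muscle miR-8 was at 607, 176 and 133 CPM. There miR-183 was at 171, 106 and 110 CPM, and miR-96 at 1562, 1052 and 1485 CPM. The part of such tissue in the level of Contig347_13229 was not tested.

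The other 9 predicted miRNAs, with 455 to 2244 counts each, had log2 differences of -0.68 to 2.40, and their groups overlapped in every case. The lowest adjusted p among them was 0.160 (edgeR).

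The 34 rows lay on 27 contigs, and 5 contigs held more than 1 of them. Contig436 held 4, and Contig43, Contig220, Contig991 and Contig1031 held 2 each, which makes 12 rows. Whether rows on 1 contig varied together was read from the log2 ratio of their counts within each library, which needs no scaling between libraries. A small SD of that ratio over the 6 libraries means that the rows kept in step. Over all 465 pairs of the 31 distinct profiles the median SD was 1.47. Leaving out the identical pair on Contig991, there were 9 pairs on a shared contig, with a median SD of 0.97, and 5 of the 9 lay under 1.47.

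Rows on Contig1031 moved together most closely among the pairs of distinct profiles. Contig1031_29113 had 140, 29 and 23 counts in white and 327, 67 and 179 in orange muscle. Contig1031_29111 had 130, 27 and 22, and 297, 57 and 166. The second row followed the first in each library at a slightly lower count, and the SD of the log2 ratio was 0.06, the lowest of the 465 pairs. Whether the 2 rows count the same reads was not tested. Both rows were higher in every orange library, with log2 differences of 1.95 (SE 0.699) and 1.90 (SE 0.702) and the same adjusted p of 0.158 (edgeR). Without white replicate 1, which was the highest white library for both, they passed at 2.79 and 2.72 (adjusted p = 0.0371 each).

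Contig43_707 and Contig43_705 also kept a steady ratio, although their levels were far apart. Contig43_705 was at 140, 181 and 185 CPM in white and 108, 231 and 82.4 CPM in orange muscle. The log2 ratio of Contig43_707 to Contig43_705 was 4.49 ± 0.07 in white and 3.98 ± 0.29 in orange muscle (SD, n = 3), with an SD of 0.34 over the 6 libraries. The ratio was lower in every orange library, by 0.51 on average (exact two-sided permutation p = 0.1, adjusted 0.45 over the 9 pairs). In the fit, Contig43_705 had a log2 difference of -0.27 (SE 0.547) beside the -0.86 of Contig43_707. By the same SD, the nearest of 62 known families lay closer to each row than its partner did. These were miR-153 for Contig43_707 (SD 0.23) and miR-1 for Contig43_705 (SD 0.26). A ratio this steady was thus not particular to the shared contig.

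On Contig220 both rows were highest in orange replicate 1. Contig220_8449 was at 88.7, 113 and 114 CPM in white and 311, 186 and 121 CPM in orange muscle. Contig220_8451 was at 68.3, 63.3 and 57.8 CPM in white and 329, 142 and 102 CPM in orange muscle. For each, all orange libraries lay above all white ones, in the same order within orange muscle. The log2 differences were 0.97 (SE 0.525, adjusted p = 0.270) and 1.60 (SE 0.581, adjusted p = 0.158), neither past the threshold. Without orange replicate 1, which also stood apart in the neural miR-124 and in the epithelial and sensory sum, that of Contig220_8451 was 0.92. The SD of their log2 ratio was 0.39, and the ratio differed by -0.55 between the groups (exact permutation p = 0.2, adjusted 0.45). The known family miR-252 lay closer to each row, at an SD of 0.35 for Contig220_8449 and 0.30 for Contig220_8451. Here too the steadiness was not particular to the shared contig.

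The 4 rows on Contig436 did not vary as a unit. Contig436_17060, the most abundant, was at 490, 1533 and 2564 CPM in white and at 639, 358 and 516 CPM in orange muscle. Contig436_17136 was highest where Contig436_17060 was lowest in white muscle, at 46.9 CPM in white replicate 1 against 9.27 and 14.9 CPM. Contig436_17138 was steadier, at 92.3, 77.4 and 71.2 CPM in white and 61.0, 32.8 and 38.6 CPM in orange muscle. Contig436_17051 had its peak in orange replicate 1. The SDs of the 6 log2 ratios among these rows ran from 0.93 to 2.14.

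Their differences between the groups were as uneven. The log2 difference was -1.60 (SE 0.619, adjusted p = 0.160) for Contig436_17060, with a call in 6 of 16 alternatives. Without white replicate 3 it was -0.88 (adjusted p = 0.414). For Contig436_17138 it was -0.86 (SE 0.503, adjusted p = 0.296), without overlap between the groups. For Contig436_17136 it was -0.06 (SE 0.740), and it turned to 0.86 without white replicate 1.

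Each name ends in a number, and the sources used here do not say what it counts. The pairs on Contig1031, Contig43 and Contig220 have numbers that differ by 2, and they had the 3 lowest SDs of the 9 pairs. On Contig436, Contig436_17136 and Contig436_17138 also differ by 2, and the SD of their ratio was 0.97. The other 5 pairs on that contig have numbers 9 to 87 apart, and their SDs were 0.93 to 2.14. None of the 9 ratios differed between the groups past 0.05, which 3 against 3 libraries cannot reach in an exact permutation test, and the adjusted p-values were 0.45 to 0.7.

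**Figure D4:**
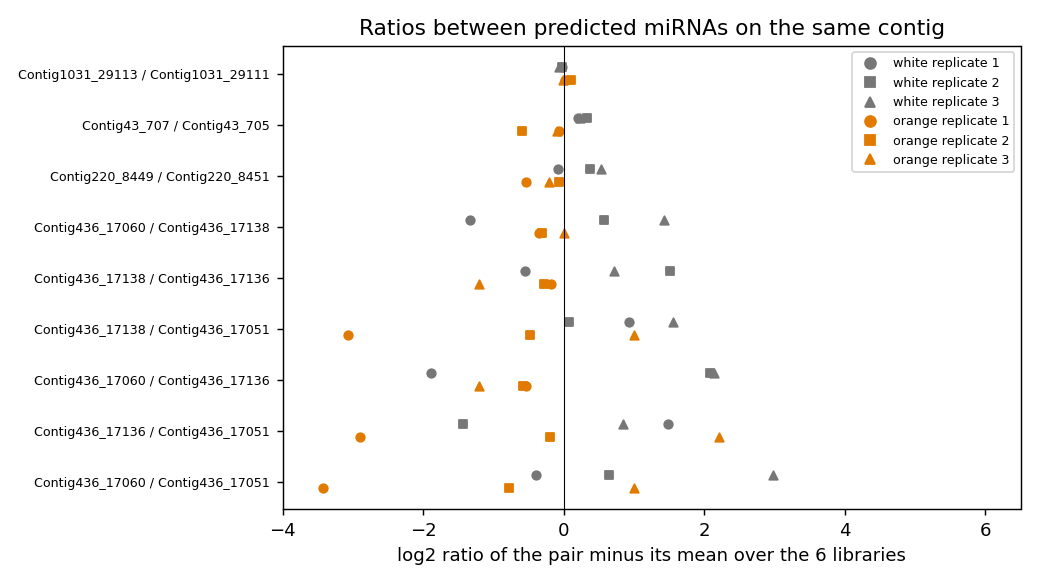
Log2 ratio of the counts of 2 predicted miRNAs on the same contig in each library, minus the mean of that ratio over the 6 libraries, for the 9 pairs that are not identical (grey: white muscle, orange: orange muscle, marker shape: replicate number; pairs ordered by spread). The pairs on Contig1031, Contig43 and Contig220 stay near 0, with SDs of 0.06, 0.34 and 0.39, while pairs on Contig436 spread up to an SD of 2.14.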

How the data were processed

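The authors deposited whole-number counts per miRNA name for the 6 libraries, with no normalization. The aligner, prediction tool and genome build are not given in the sources used here. A deposited table of the same values scaled to a fixed total was not used, and its 9 further per-sample columns were not used either. Columns were assigned by letter and number, the reading of the letters being an inference. The row with the most counts stood for each of 188 known families, because names repeat the same reads, and every predicted row was kept, giving 716 features. Orange and white libraries were compared by edgeR 4.0.16 under R 4.3.3 (TMM, filterByExpr by group, robust glmQLFit, glmQLFTest) over the 142 features that passed the filter, with Benjamini-Hochberg adjustment at 0.05. The fit was tried on simulated counts that had the same relative spread for every feature, a simpler setting than these libraries. That trial does not bear on whether the calls given here are right. The SE is the size of the log2 difference divided by the square root of F. Ratios used a pseudocount of 0.5 counts. Exact tests used scipy 1.17.1, and alternatives included DESeq2 1.42.0. Replicate numbers name libraries and were not used as pairs in the main comparison, since the labels give them no shared origin.

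Named were the 10 predicted miRNAs with the highest mean CPM, those called, up to 8 per direction without overlap, those sharing a contig, the 5 with the highest single library and the 3 just above 300 counts. The members, lists and rules were chosen with earlier results of these data known. Depth was 2092825 to 4001516 counts per library on this table.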

Additional observations from a re-analysis of the deposited data

How the results depend on the processing

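The 3 called miRNAs (Contig118_4651, Contig179_7833 and Contig632_21629) kept the sign of their difference in all 16 alternative fits, and were called in 13, 14 and 14 of them. Against 3 calls (2 higher, 1 lower), there were 4 (2 and 2) with library totals, 3 (1 and 2) with upper-quartile factors, 10 (4 and 6) by DESeq2, 7 (4 and 3) with no filter, 7 (3 and 4) with predicted rows only, and 7 (5 and 2) without both libraries numbered 1. Calls over all features moved too, from 13 of 142 to 20, 11 and 33 of 142, 29 of 491, 13 of 79 and 19 of 139 in these settings. Leaving out each library in turn gave 0 to 6 calls, 0 to 4 higher and 0 to 2 lower, with fewer libraries in each fit. With the replicate block, 5 were called (4 higher, 1 lower; 12 of 142 over all features), with Contig117_4460 and Contig428_16695 added. The labels do not pair the libraries, and the correlations of deviations between the same numbers were 0.20, -0.02 and 0.16. White replicate 1 was closest to orange replicate 1, white replicate 2 to orange replicate 3 (0.049) and white replicate 3 to orange replicate 2 (0.17). Such weak values cannot decide whether the numbers pair the libraries. The median log2 difference, 0.04, was -0.25 with DESeq2 size factors, -0.20 with library totals, -0.65 with upper-quartile factors, -0.27 by DESeq2, -0.12 with no filter and -0.33 with predicted rows only, where that of all features was -0.07, -0.01, -0.39, -0.07, -0.15 and -0.24. Without each library in turn it was -0.065 to 0.32. The share of the 34 rows turned to -0.833 percentage points without Contig117_4460, and was 1.83 to 4.17 without each library. The share of the 2nd to 10th, -0.801, turned to 0.104 without Contig632_21629, chosen after seeing the data.

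Signs turned for differences that did not pass. Contig117_4460 was at -0.37 with upper-quartile factors. Contig991_28408 was at -0.12 with DESeq2 size factors and by DESeq2, -0.022 with library totals, -0.65 with upper-quartile factors, -0.054 with no filter and -0.28 with predicted rows only, and ran from -0.18 to 0.32 without each library. Contig347_13229 ran from -0.82 to 1.28 without each library, was at 0.40 without both libraries numbered 1 and at 0.24 with the replicate block. Contig436_17136 ran from -0.52 to 0.86, with 0.73 and 0.21 in those 2 settings. Contig436_17051 ran from -0.66 to 2.65, with -0.78 without both libraries numbered 1. The ratio difference of Contig436_17060 to Contig436_17138 ran from -1.22 to 0.16, and that of Contig436_17136 to Contig436_17051 from -1.84 to 0.71, with 1.30 without both libraries numbered 1. Apart from fewer libraries or features, the cause was not tested. For the 4 tested rows under 500 counts, SEs of 0.696 to 1.41 limit what can be seen.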

Other observations

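Several predicted miRNAs had a course over the 6 libraries close to that of a known family. The likeness was read as the SD of the log2 ratio of counts, and the nearest of 62 families was taken for each, after the values were seen, so a small SD can arise from the choice among many. Contig428_16695 lay nearest to miR-281, an miRNA known from many invertebrates, with an SD of 0.34 where the median over the families was 2.42. The counts of miR-281 were 238, 488 and 641 in white and 2816, 2255 and 9685 in orange replicates 1 to 3, and its log2 difference of 3.62 (SE 0.768, adjusted p = 0.0257, edgeR) passed where the 3.53 of Contig428_16695 did not. Contig179_7833 was nearest to miR-281 as well, at an SD of 0.69 against a median of 2.34. Contig1317_31844 and its identical partner Contig438_17191 lay nearest to miR-92, at 0.13 against 0.96. Contig410_14939 lay nearest to miR-67, at 0.10 against 1.17, and Contig347_13229 to miR-263, at 0.20 against 1.35. Contig220_8451 lay nearest to miR-99, at 0.28 against 1.17, and the counts of miR-99 were 43511 in orange replicate 1 and 4086 and 7765 in the other orange libraries. What lies behind these likenesses was not tested.

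On the contigs of the 34, 5 other predicted rows had 100 to 299 counts. Contig118_4649, whose number lies 2 from that of the called Contig118_4651, had 56, 36 and 12 counts in white and 85, 0 and 36 in orange replicates 1 to 3. Its log2 difference was 0.25 (SE 1.18), beside the 2.16 of Contig118_4651, and the difference between these was not tested. Contig110_4195 had 31, 36 and 22 counts in white and 124, 18 and 11 in orange muscle, while Contig110_4205 was at 0 in all white libraries.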
